A study of Mus musculus with 18 samples.

Results

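Pericytes and vascular smooth muscle cells, together called mural cells, were examined through 10 genes that mark them, chosen by symbol from the 51290 genes of the deposited table. The 5 pericyte genes were Cspg4, Rgs5, Notch3, Abcc9 and Mcam, and the 5 contractile genes of smooth muscle were Des, Myh11, Tagln, Acta2 and Cnn1. Poly(A) RNA was sequenced from 18 mouse samples in 3 groups of 6. Normal nerve was trigeminal nerve of genotype Nf1 flox/flox PostnCre-, and plexiform neurofibroma, a benign nerve tumour, was trigeminal nerve of genotype Nf1 flox/flox PostnCre+. The malignant peripheral nerve sheath tumours (MPNST) were Nf1 flox/flox Arf flox/flox PostnCre+, with no body site given. All 3 groups carry the floxed Nf1 alleles. In the 2 tumour groups Cre is expressed from the Postn promoter, so recombination is limited to cells that have used that promoter. Ages are not given. The design text states 6 mice for the MPNST, and nothing says so for the other groups. The p-values therefore measure the spread between these samples.

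Pericytes lie on capillaries, and smooth muscle cells wrap arteries, arterioles and veins. Endothelial cells recruit mural cells with platelet-derived growth factor B, and Notch ligands on the endothelium signal to NOTCH3 on mural cells. Serum response factor (SRF) and its partner myocardin drive the contractile genes through CArG boxes, and myofibroblasts switch on some of the same genes. In tumours the mural coat of vessels is often thin or loosely attached.

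Libraries held 13886399 to 23652959 rounded counts. Levels are CPM values, each count relative to its library's total after TMM (trimmed mean of M-values) scaling, and libraries are numbered in accession order. CPM is not corrected for gene length, so levels are compared between samples and not between genes. Schwann cell genes (10), which mark nerve, summed to 3613 to 9935 CPM in the nerves and 9819 to 16763 CPM in the neurofibromas, but to 107 to 1593 CPM in the MPNST. Marker genes of other tissues were high in several libraries, and the source of these transcripts was not tested. The summed level of 9 salivary gland genes reached 909061 CPM in MPNST 2, against 5.78 to 300.5 CPM in the other MPNST. The TMM factor of MPNST 2 was 0.436, against at least 0.934 in each of the other 17 libraries, so its scaled levels are more than double its unscaled ones and are not shares of its counts. Skeletal muscle genes (15) summed to 68324 CPM in MPNST 3, 2267 CPM in neurofibroma 1 and 539 CPM in nerve 3. Pancreatic and sympathoadrenal genes peaked in MPNST 6 at 3730.4 and 3603 CPM, and central glial genes in nerve 6 at 1810.5 CPM. The label of every nerve and neurofibroma sample says that it came from an earlier series, and that of no MPNST does. Series, tissue site and group cannot be told apart in the MPNST comparisons.

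All 10 genes were detected in every group. The plot of the members by library shows both sets. The pericyte genes differed less between libraries of nerve and neurofibroma than the contractile genes did. Mean log2(CPM + 1) over the pericyte genes was 4.46 to 5.03 in the nerves and 4.96 to 5.62 in the neurofibromas, and it spread from 4.43 to 6.81 in the MPNST. Over the contractile genes the groups spanned 2.17 to 5.55, 2.32 to 5.25 and 1.78 to 6.69.

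**Figure D1:**
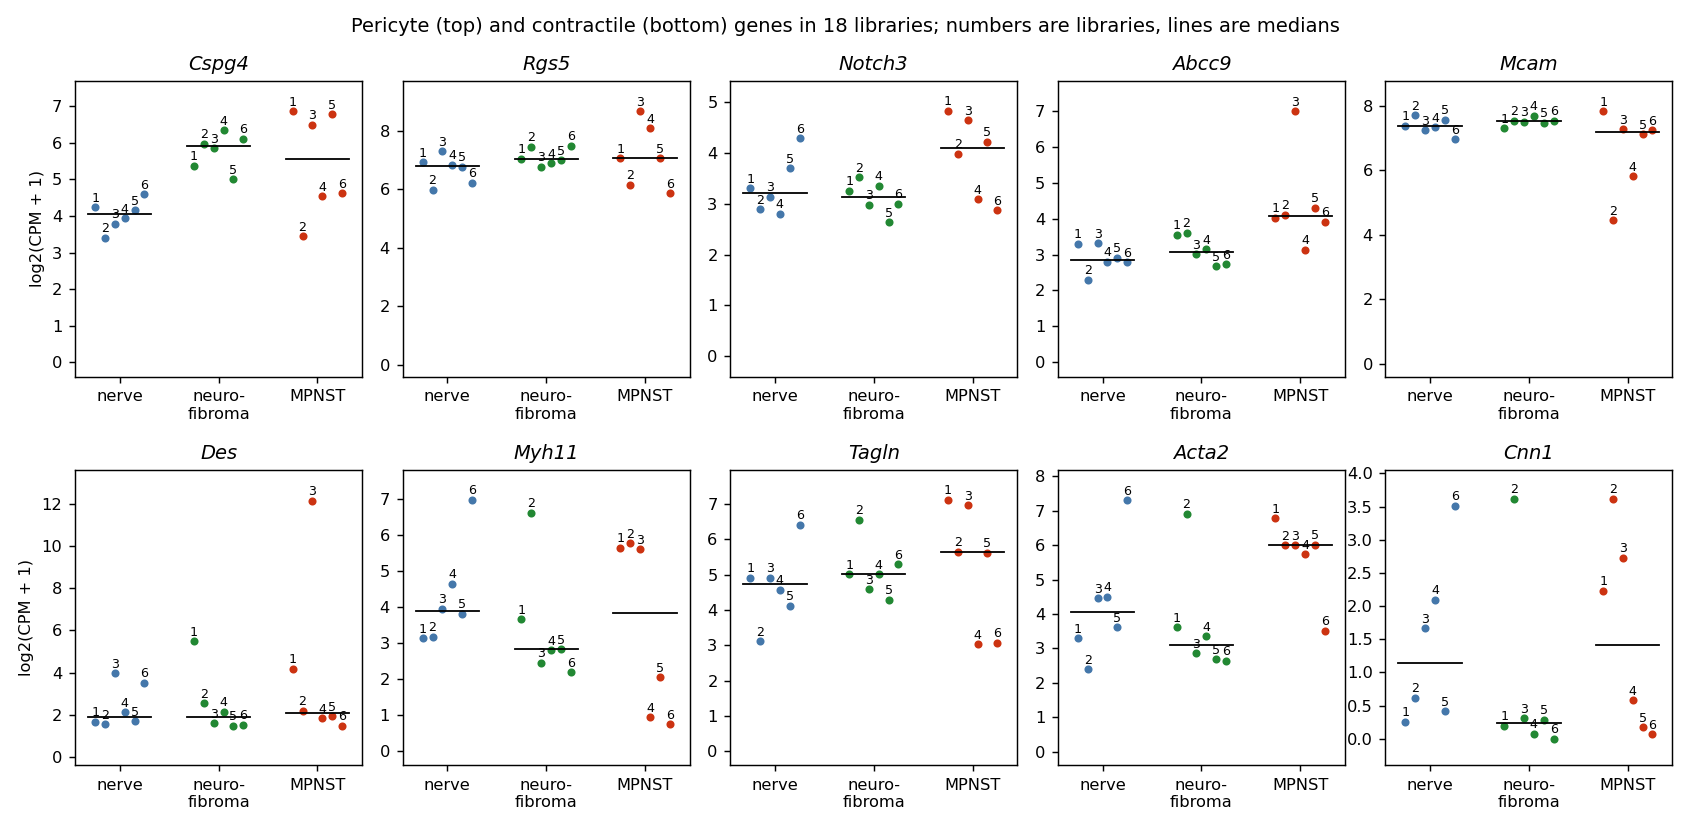
Level of each pericyte gene (top row) and contractile gene (bottom row), as log2(CPM + 1) on the vertical axis, in 6 nerve, 6 neurofibroma and 6 MPNST libraries; each point is a library, its number stands above it and the line is the group median. Cspg4 separates nerve from neurofibroma, while within the nerve and neurofibroma groups Myh11, Tagln, Acta2 and Cnn1 are highest in nerve 6 and neurofibroma 2. Des is highest in MPNST 3.

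Neurofibroma was first set against normal nerve, the comparison of the same nerve with and without Cre. Of the 9 members tested, 1 passed the edgeR quasi-likelihood test at a Benjamini-Hochberg adjusted p below 0.05 (called), Cspg4. Over all 16464 genes tested, 13.9% were called, 7.94% higher and 6.00% lower, so 1 of 9 is near the background share. The median log2 change of the 9 members was 0.23, against -0.0174 for all genes tested. Cnn1 did not pass the filter on low counts in this comparison. In bulk tissue, fewer cells of a type and less RNA per cell cannot be told apart.

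Cspg4, which encodes the NG2 proteoglycan on the pericyte surface, rose in neurofibroma. Its level was 18, 9.58, 12.8, 14.4, 16.8 and 23.1 CPM in nerve 1 to 6. In neurofibroma 1 to 6 it was 40.6, 62.1, 56.7, 80.8, 31.2 and 68.1 CPM. The lowest neurofibroma library was thus above the highest nerve library, a separation that 4.57% of all tested genes showed in this direction and 1.90% in the other. The groups averaged 15.8 ± 4.66 and 56.6 ± 18.2 CPM (SD, n = 6 each), a log2 change of 1.82 (SE 0.25, edgeR adjusted p = 0.00191), or 3.52-fold. The call held in each fit that left out 1 library (1.67 to 1.97), but was lost in one fit of all 18 samples (log2 change 1.84, edgeR adjusted p = 0.245). NG2 is also made by glial and Schwann-lineage cells. Schwann cell genes rose in 6 of 10 tested and fell in 0, at the summed levels given above. Fibroblast and myofibroblast genes rose in 7 of 14 (954 to 1863 CPM against 2151 to 4286 CPM), and endothelial genes were called in 0 of 15 (160.1 to 345 CPM against 176 to 269 CPM). The part of these cell types in the Cspg4 change was not tested.

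The other pericyte genes did not pass. Rgs5, a regulator of G-protein signalling that is abundant in pericytes, had 62.8 to 156 CPM in nerve (median 112) and 108 to 179 CPM in neurofibroma (median 129). Its log2 change was 0.37 (SE 0.208, edgeR adjusted p = 0.238), and the groups overlapped. Mcam, the adhesion molecule CD146 of mural and endothelial cells, had 123 to 208 CPM in nerve and 157 to 205 CPM in neurofibroma, the narrowest relative spread of any member in neurofibroma (182 ± 15.5 CPM, n = 6). Mcam had a log2 change of 0.11 (SE 0.108). Notch3 had -0.36 (SE 0.28), and Abcc9, the sulphonylurea receptor subunit of vascular potassium channels, had 0.23 (SE 0.241). Their edgeR adjusted p-values were 0.512, 0.407 and 0.545.

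A further list of 20 pericyte genes gave 4 that rose and 0 that fell, with a median log2 change of 0.183. Of all genes tested, 7.94% rose and 6.00% fell, the shares beside which the list counts stand. Foxs1, a forkhead factor of mural cells, went from 1.59 ± 0.609 to 9.99 ± 3.98 CPM (log2 change 2.62, SE 0.327, edgeR adjusted p = 0.00166). Steap4, a metalloreductase, went from 7.8 ± 2.35 to 24.6 ± 9.51 CPM (1.63, SE 0.277, edgeR adjusted p = 0.00459). Itga7, a laminin receptor chain that muscle also makes, had a log2 change of 0.63 (SE 0.167, edgeR adjusted p = 0.0274). It was lowest of the neurofibromas in library 1 (107 CPM), which had the highest skeletal muscle level of that group. The part of muscle, Schwann cells and fibroblasts in the Foxs1, Steap4 and Itga7 changes was not tested. Kcnj8 encodes the pore-forming partner of the Abcc9 product. It averaged 1.83 ± 0.735 CPM in nerve and 2.77 ± 0.584 CPM in neurofibroma and was not called. Of 15 genes that signal between endothelium and mural cells, 4 rose and 0 fell. Among them were Pdgfa (0.80, SE 0.134), Ednrb, also a Schwann cell gene (0.63, SE 0.137), and S1pr3 (0.66, SE 0.158), with edgeR adjusted p-values of 0.0045, 0.013 and 0.0184. The remaining one was Pdgfb, the recruiting ligand, named here after its values were seen, at 6.78 ± 1.33 and 11.8 ± 3.15 CPM (0.77, SE 0.197, edgeR adjusted p = 0.0233). In MPNST, where Schwann cell genes were low, Ednrb and S1pr3 averaged 18.3 and 31.2 CPM, and Pdgfa and Pdgfb 72.3 and 31 CPM. The cell source of these 4 rises was not tested. In the Notch pathway 2 of 15 genes rose and 2 fell, with the target Hes1 at 0.89 (SE 0.219) and the ligand Jag2 at -0.84 (SE 0.169), at edgeR adjusted p-values of 0.0201 and 0.00923.

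Promoter windows show what sequence lies at the start of Cspg4 and Abcc9, 2 of the 3 pericyte genes that were called in a comparison. They run from 250 bases before to 50 bases after the start site and come from RefSeq on build GRCm38.p6, whereas the deposited counts were made on GRCm39, per the submitters' processing notes. A window was found for 8 of the 10 members. The window of Cspg4 is chr9:56864854-56865153 on the plus strand and that of Abcc9 is chr6:142702225-142702524 on the minus strand, each written 5′ to 3′ along the gene. Capitals mark TGGGAA, the core motif of RBPJ, the DNA-binding partner of Notch receptors.
Cspg4: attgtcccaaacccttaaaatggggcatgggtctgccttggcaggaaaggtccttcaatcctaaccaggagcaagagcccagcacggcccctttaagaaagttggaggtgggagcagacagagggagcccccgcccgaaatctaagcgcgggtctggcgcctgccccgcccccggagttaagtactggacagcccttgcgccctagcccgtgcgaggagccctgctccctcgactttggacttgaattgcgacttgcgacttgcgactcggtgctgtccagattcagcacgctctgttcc
Abcc9: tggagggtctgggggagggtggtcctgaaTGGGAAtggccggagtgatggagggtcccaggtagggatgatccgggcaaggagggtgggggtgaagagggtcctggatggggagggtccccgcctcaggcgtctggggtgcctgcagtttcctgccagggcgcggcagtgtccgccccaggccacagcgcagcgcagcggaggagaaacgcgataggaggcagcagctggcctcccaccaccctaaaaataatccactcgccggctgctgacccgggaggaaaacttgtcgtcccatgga
The search covered both strands. TGGGAA was in the windows of Abcc9, at base -221 from the start site, and Acta2, and 25.6% of all 32851 windows held it. The letters are not in the Cspg4, Rgs5 or Notch3 window, and a match does not show binding.

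The contractile genes did not pass in neurofibroma against nerve, and single libraries set their group means. Acta2, the smooth muscle actin, had 8.8, 4.28, 21.1, 21.6, 11.3 and 158 CPM in nerve 1 to 6. It had 11.3, 119, 6.23, 9.27, 5.46 and 5.26 CPM in neurofibroma 1 to 6. Nerve 6 was 7.31 times and neurofibroma 2 was 10.5 times the next library of its group. Myh11, the smooth muscle myosin heavy chain, was highest in the same 2 libraries, at 125 CPM in nerve 6 and 97.6 CPM in neurofibroma 2. Its other levels were 7.73 to 24.1 CPM in nerve and 3.57 to 11.6 CPM in neurofibroma. Tagln, the actin-binding protein SM22, was highest there too, with 84.3 and 93.6 CPM, against at most 29.2 and 38.3 CPM in the rest of each group.

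Cnn1, calponin, was highest in the same 2 libraries of the trigeminal groups. It had 173 counts (10.4 CPM) in nerve 6 and 204 counts (11.3 CPM) in neurofibroma 2. The other nerves had 4 to 50 counts and the other neurofibromas 0 to 5 counts, where 3 counts in neurofibroma 6 would be 0.188 CPM. In each group, then, 4 of 5 contractile genes and 2 of 5 pericyte genes were highest in that 1 library. The pericyte gene Rgs5 had 74.2 CPM in nerve 6, below the nerve median, and 175 CPM in neurofibroma 2. By mean log2(CPM + 1), the list of 20 other pericyte genes was highest of each group in these libraries. It was 3.94 in nerve 6 (next 3.42) and 3.83 in neurofibroma 2 (next 3.78). Of its genes, 11 were highest of the nerves in nerve 6 and 6 were highest of the neurofibromas in neurofibroma 2. Its summed level was the lowest of each group there, 942 and 1067 CPM. Nerve 6 also had the highest central glial level of the nerves, and its summed endothelial level was 345 CPM (next 322 CPM in nerve 2, which was higher by mean log2 level, 4.05 against 4.03). Neurofibroma 2 had the highest fibroblast and endothelial levels of its group (endothelial 269 CPM, next 219 CPM). Sensory neuron genes (10) had their lowest sum of each group there, 1806 CPM in nerve 6 and 2779.9 CPM in neurofibroma 2. The group medians were 3708 and 3394 CPM. The part of these cell types in the contractile levels was not tested.

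The log2 changes of Acta2, Myh11 and Tagln were -0.57 (SE 1.01), -0.62 (SE 0.955) and 0.28 (SE 0.522), with edgeR adjusted p-values of 0.734, 0.692 and 0.749. Without nerve 6, Acta2 and Myh11 turned to 0.94 and 0.66, and without neurofibroma 2, Tagln turned to -0.19. Des, the intermediate filament protein desmin, which pericytes, smooth muscle and striated muscle all make, had 1.95 to 14.8 CPM in nerve and 1.78 to 43.4 CPM in neurofibroma (0.68, SE 0.88, edgeR adjusted p = 0.628). Of 21 other contractile genes tested, 1 rose, Vcl (vinculin, 0.38, SE 0.0969, edgeR adjusted p = 0.0245), and 0 fell.

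The promoter windows of Acta2, chr19:34255324-34255623 on the minus strand, and Cnn1, chr9:22099003-22099302 on the plus strand, are shown because these genes peaked in the same libraries. They are from the same RefSeq build. An exact CArG box was in 0 of the 8 member windows and in 1.63% of all 32851. After the data had been seen, 1 other letter was allowed within its central 6. Such an element was then in 1 member window, that of Acta2, and in 9.98% of all windows. Capitals mark the 2 elements of Acta2, whose first bases lie at -84 and -34.
Acta2: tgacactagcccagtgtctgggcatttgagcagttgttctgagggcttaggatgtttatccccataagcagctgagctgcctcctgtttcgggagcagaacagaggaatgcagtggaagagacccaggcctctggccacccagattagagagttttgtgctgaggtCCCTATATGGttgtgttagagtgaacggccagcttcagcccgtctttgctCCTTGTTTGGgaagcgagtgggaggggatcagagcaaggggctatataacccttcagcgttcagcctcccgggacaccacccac
Cnn1: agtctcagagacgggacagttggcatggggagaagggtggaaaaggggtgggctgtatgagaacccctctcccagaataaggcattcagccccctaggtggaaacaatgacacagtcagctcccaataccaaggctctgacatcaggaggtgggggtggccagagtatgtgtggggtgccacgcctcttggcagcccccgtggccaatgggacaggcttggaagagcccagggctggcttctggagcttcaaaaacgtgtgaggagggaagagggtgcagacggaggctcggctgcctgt
The TGGGAA of Acta2, at -27, overlaps its second element and is not in capitals beyond it. For Cnn1 the result says only that these letters are not in this window.

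MPNST was then set against neurofibroma, the comparison named in the design text. Of 9 members tested, 3 rose (Notch3, Abcc9 and Des) and 0 fell. Over all 16537 genes tested, 42.0% were called, 25.3% higher and 16.8% lower. The share of 3 of 9, all higher, lies between the 25.3% and the 42.0%, and nothing is read from it. The median log2 change was 0.80 for the 9 members and 0.223 for all genes. Each of the 10 members overlapped between the groups, which 7.46% of tested genes did not in the higher and 16.0% in the lower direction.

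**Figure D2:**
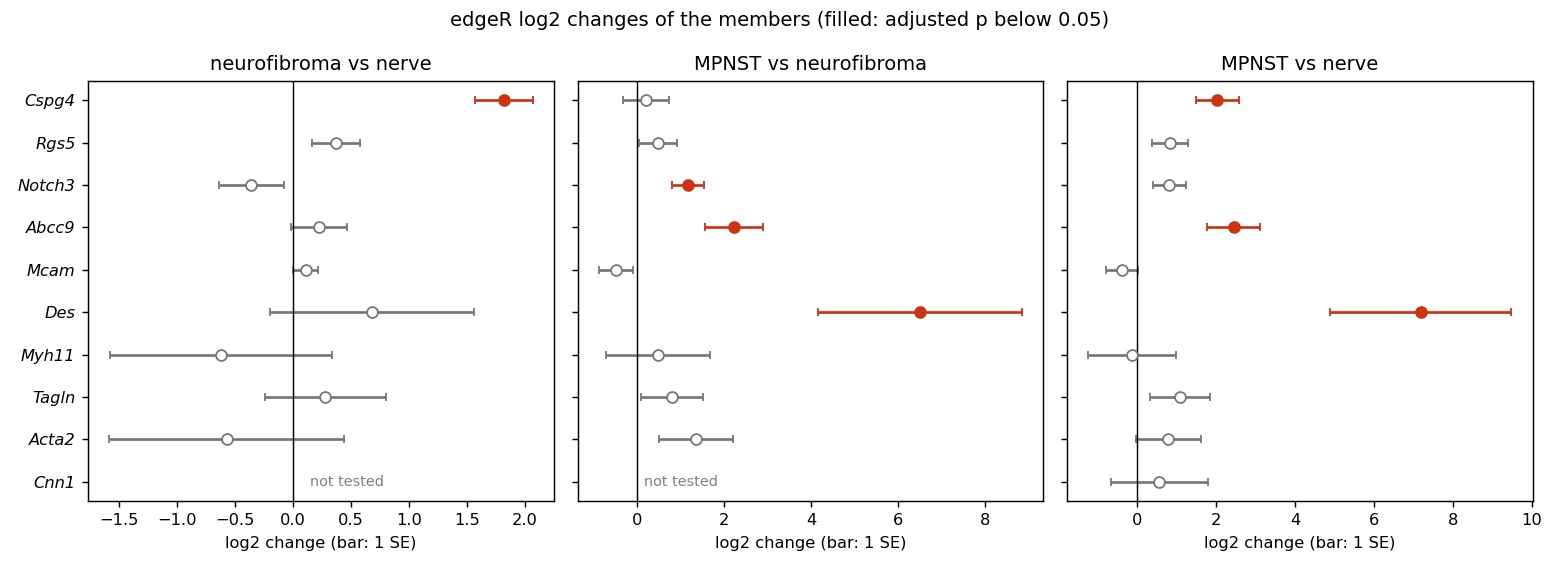
Log2 change of each member (horizontal axis) with 1 SE as bars, from edgeR, in neurofibroma against nerve, MPNST against neurofibroma and MPNST against nerve; filled points have an adjusted p below 0.05. Cspg4 is filled in the first and last panel, Abcc9 and Des in both MPNST panels, and Notch3 in the middle one, and Cnn1 was tested in the last panel alone.

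Notch3, the Notch receptor of mural cells, had 8.55, 10.5, 6.91, 9.21, 5.24 and 7.01 CPM in neurofibroma 1 to 6. In MPNST 1 to 6 it had 27.5, 14.8, 24, 7.49, 17.6 and 6.35 CPM. MPNST 1, 2, 3 and 5 lay above every neurofibroma, and MPNST 4 and 6 lay within their range. Without TMM scaling MPNST 2 was at 6.47 CPM, inside the neurofibroma range of 5.48 to 11 CPM. The log2 change was 1.17 (SE 0.375, edgeR adjusted p = 0.0248), or 2.26-fold. It lost the call when any of 5 libraries was left out (neurofibroma 3, 5 or 6, or MPNST 1 or 3), where log2 changes were 1.01 to 1.13 and adjusted p-values 0.0513 to 0.0597.

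Abcc9 had 5.35 to 11.2 CPM in neurofibroma (median 7.41). In MPNST 1 to 6 it had 15.3, 16.2, 126, 7.75, 18.8 and 14.1 CPM. MPNST 3 was 6.72 times the next library, and only MPNST 4 lay within the neurofibroma range. Without TMM scaling MPNST 2, at 7.06 CPM, lay inside that range too (5.6 to 11.7 CPM). The log2 change was 2.22 (SE 0.667, edgeR adjusted p = 0.0188). Without MPNST 3, the library with the highest skeletal muscle genes, it was 0.99 (SE 0.305, edgeR adjusted p = 0.0236). Abcc9 is also expressed in striated muscle, and how much of its level in MPNST 3 came from muscle was not tested.

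Cspg4 was not called between neurofibroma and MPNST, and the MPNST were widely scattered. It had 116, 9.89, 89.6, 22.4, 109 and 23.7 CPM in MPNST 1 to 6. MPNST 1, 3 and 5 exceeded every neurofibroma, and MPNST 2, 4 and 6 were below every neurofibroma. The log2 change was 0.21 (SE 0.527, edgeR adjusted p = 0.769). Rgs5 had 132, 70.7, 404, 270.3, 132 and 57.8 CPM (0.48, SE 0.432, edgeR adjusted p = 0.394). Mcam had 226, 21, 153, 55.2, 138 and 151 CPM, lowest in MPNST 2 and 4 (-0.48, SE 0.397, edgeR adjusted p = 0.344).

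Des was carried by 1 tumour. It had 17.2, 3.59, 4548, 2.56, 2.83 and 1.78 CPM in MPNST 1 to 6, a group median of 3.21 CPM against 2.73 CPM in neurofibroma. The log2 change of 6.50 (SE 2.35, edgeR adjusted p = 0.042) became -0.70 (SE 0.995, edgeR adjusted p = 0.596) without MPNST 3. The call was also lost without any 1 of neurofibroma 2 to 6, where the log2 change was 6.27 to 6.35 and the edgeR adjusted p-value 0.0801 to 0.0818. The skeletal muscle actin Acta1 was 12238 CPM and the muscle creatine kinase Ckm 7610.1 CPM in MPNST 3. In neurofibroma 1, where Des was 43.4 CPM, Acta1 was 159 CPM and Ckm 292 CPM. In nerve 3, where Des was 14.8 CPM, they were 74.3 and 66.6 CPM. The summed skeletal muscle level was 9.79 to 38.6 CPM in the other MPNST, with up to 6 of its 15 genes at 0 in a library. It was 35.7 to 51.1 CPM in the other neurofibromas and 46 to 99.8 CPM in the other nerves. The highest Des library of each group was thus the one with the highest summed skeletal muscle level, as the plot of Des against Acta1 shows. MPNST 1 and nerve 6 had raised Des, 17.2 and 10.4 CPM, with Acta1 at 1.72 and 1.63 CPM.

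**Figure D3:**
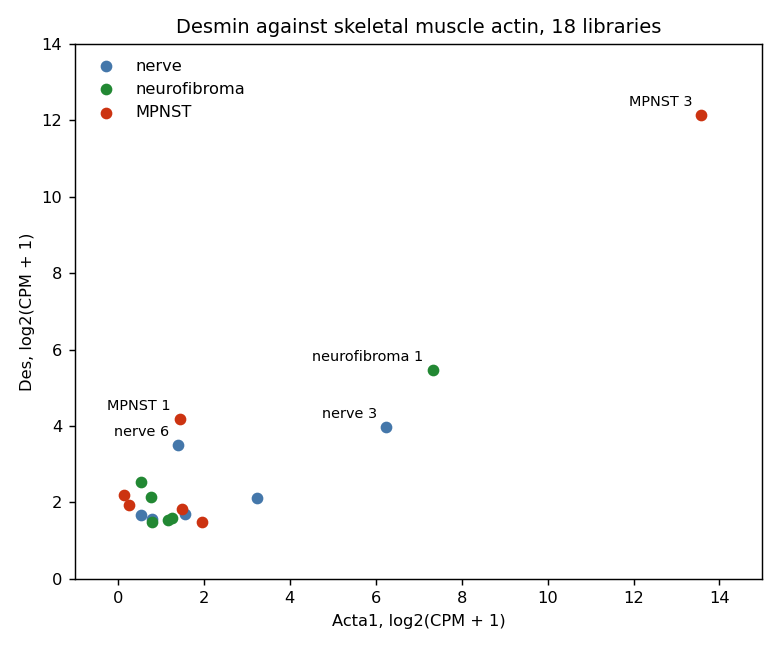
Des (vertical axis) against the skeletal muscle actin Acta1 (horizontal axis), both as log2(CPM + 1), with 1 point for each of 18 libraries, coloured by group. MPNST 3, neurofibroma 1 and nerve 3 are high in both genes, while MPNST 1 and nerve 6 are high in Des with little Acta1.

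The remaining contractile genes did not pass against neurofibroma. Acta2 had 109.7, 62.8, 63.2, 52.1, 63.5 and 10.4 CPM in MPNST 1 to 6, against a neurofibroma median of 7.75 CPM and a highest value of 119 CPM. MPNST 1 to 5 were all above 5 of the 6 neurofibromas, and the overlap came from neurofibroma 2 and MPNST 6. The log2 change was 1.35 (SE 0.854, edgeR adjusted p = 0.219), and without neurofibroma 2 it was 3.12 (SE 0.514, edgeR adjusted p = 0.00142). With limma-voom and sample weights, which reduce the weight of libraries far from their group, it was 2.92 (SE 0.757, adjusted p = 0.00484). Acta2 and Acta1 are close in sequence, and how many reads the estimated counts shared between them was not tested.

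Tagln had 138, 49.2, 124, 7.22, 48.1 and 7.41 CPM in the MPNST (0.80, SE 0.706, edgeR adjusted p = 0.377), with MPNST 4 and 6 below every neurofibroma. Myh11 had 49.1, 53.6, 47.6, 0.917, 3.16 and 0.674 CPM (0.48, SE 1.19, edgeR adjusted p = 0.767). MPNST 1, 2 and 3 exceeded 5 of the 6 neurofibromas, and MPNST 4, 5 and 6 were below every neurofibroma. Cnn1 had 71, 117, 75, 13, 2 and 1 counts in MPNST 1 to 6 and was not tested here. MPNST 2 had the highest scaled Myh11 and Cnn1 levels of the MPNST, but not without TMM scaling. Unscaled, Myh11 was 23.4 CPM there against 53.8 CPM in MPNST 1 and 44.4 CPM in MPNST 3, and Cnn1 was 4.95 CPM against 5.27 CPM in MPNST 3. MPNST 2 had the highest levels of salivary gland genes and of myoepithelial and epithelial genes. The latter (10 genes) summed to 1403 CPM against at most 232 CPM in the other MPNST, and Krt14, a keratin of myoepithelial cells, was 20.6 CPM. Myoepithelial cells of glands also make the contractile proteins, and their part was not tested.

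Acta2 and Myh11 parted in some tumours, a pattern looked for after their values were seen. The ratio of Acta2 to Myh11 counts was 0.533 to 1.45 in the 6 nerves and 0.891 to 1.54 in the 6 neurofibromas. Nerve 6 and neurofibroma 2, with their high levels of both genes, were within these ranges at 1.26 and 1.22. It was 2.23, 1.17 and 1.33 in MPNST 1 to 3, and 56.9, 20.1 and 15.5 in MPNST 4 to 6. In MPNST 4 there were 1365 Acta2 and 24 Myh11 counts, in MPNST 5 there were 966 and 48, and in MPNST 6 there were 217 and 14. A high ratio thus came with low Myh11 in these 3 libraries, and in MPNST 4 and 5 Acta2 was as high as in MPNST 3 within 1.5-fold. The ratio is used only between libraries, since it is not corrected for gene length, and no test was made of it.

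**Figure D4:**
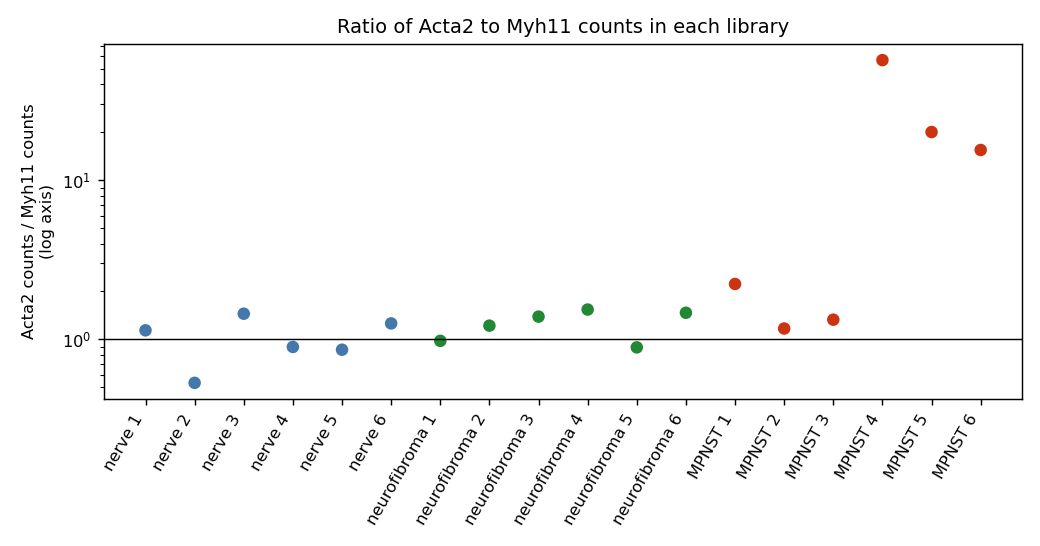
Ratio of Acta2 to Myh11 counts (vertical log axis) in each of the 18 libraries, coloured by group, with a line at a ratio of 1. The 12 nerve and neurofibroma libraries sit between 0.533 and 1.54, and MPNST 4, 5 and 6 sit at 56.9, 20.1 and 15.5.

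Genes around the members gave calls in both directions in MPNST against neurofibroma, where 25.3% of all genes tested rose and 16.8% fell. Of the 20 other pericyte genes, 3 rose and 1 fell (median log2 change 0.697), with Anpep, an aminopeptidase that fibroblasts and epithelia also carry, at 3.55 (SE 0.774), and Ano1, a chloride channel, at 3.27 (SE 0.843). Rgs4, a relative of Rgs5 that neurons also express, was at -3.56 (SE 1.11), and edgeR adjusted p-values were 0.00378, 0.00906 and 0.0226. Ano1 was 307 CPM in MPNST 2, the library with the high salivary gland genes. Of 22 other contractile genes, 5 rose and 4 fell (median 0.617). Of the 23 genes of this list in the table, 15 had their highest MPNST level in MPNST 3, the library with the highest skeletal muscle genes. They summed to 13781 CPM over the list there, and to 1952 CPM in the next MPNST. How much of these calls came from muscle was not tested. Srf, the factor that binds CArG boxes, went from 12 ± 2.23 to 29.4 ± 10.4 CPM (log2 change 1.398, SE 0.24, edgeR adjusted p = 0.000952). Kcnmb1, the smooth muscle potassium channel subunit, went from 17 ± 8.87 to 0.479 ± 0.289 CPM (log2 change -5.005, SE 0.581, edgeR adjusted p = 7.95e-05). Pcp4l1, which neurons also express, was at -5.50 (SE 0.686, edgeR adjusted p = 0.000125). Sensory neuron genes fell beside them in 7 of 10 tested, with summed levels of 2779.9 to 4151 CPM in neurofibroma. They summed to 1368 CPM in MPNST 6, the library with the highest sympathoadrenal genes, and to 6.07 to 15 CPM in the other MPNST. Rgs4 was also highest in MPNST 6, at 279 CPM, against an MPNST median of 9.93 CPM. The part of neurons in the falls of Kcnmb1, Pcp4l1 and Rgs4 was not tested.

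In the Notch pathway list, 9 of 15 genes rose and 3 fell, with a median log2 change of 1.24. Dll1, a ligand, was at 2.85 (SE 0.47), Maml1, a coactivator, at 1.24 (SE 0.197) and Hey2, a target gene, at -4.53 (SE 0.768), with edgeR adjusted p-values of 0.000766, 0.000593 and 0.000898. Hey2 was 45.8 ± 4.86 CPM in neurofibroma and 1.91 ± 2.49 CPM in MPNST (n = 6 each). Other genes of the list, among them the target Hes1, went both ways. Hes1 and Heyl averaged 12.2 and 8.91 CPM in neurofibroma, and 42.8 and 29.9 CPM in MPNST. Hey1 and Nrarp averaged 25.6 and 23.8 CPM in neurofibroma, and 8.68 and 10.4 CPM in MPNST. Of the 15 recruitment genes, 6 rose and 3 fell. Tgfb1, which encodes a growth factor that induces contractile genes, was at 2.44 (SE 0.433), the angiopoietin Angpt2 at -1.88 (SE 0.272) and the endothelin receptor Ednrb, also a Schwann cell gene, at -3.08 (SE 0.388), with edgeR adjusted p-values of 0.00117, 0.000334 and 0.000135.

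Endothelial genes rose in 9 of 15 and fell in 0 (median log2 change 1.48), led by Plvap, a component of fenestrated endothelium (4.50, SE 0.675, edgeR adjusted p = 0.000426). They served as a reference for vessels in the differences that follow. Of the 5 pericyte members, Mcam is also made by endothelial cells and Cspg4 by glial and Schwann-lineage cells. The difference is therefore not a measure of mural cells per vessel. The pericyte level minus the endothelial level, both means of log2(CPM + 1), was 1.52 to 2.13 in neurofibroma (median 1.86) and 0.53 to 1.79 in MPNST (median 1.08). Nerve had 0.406 to 1.7 (median 1.33). MPNST 1 and 2 had the lowest differences of the tumours, 0.55 and 0.53, and 5 of the 6 MPNST lay below every neurofibroma. The contractile difference overlapped widely, with medians of -0.284 in nerve, -0.806 in neurofibroma and -0.813 in MPNST. These differences of list means are descriptions and were not tested. Fibroblast and myofibroblast genes rose in 8 of 14 (2151 to 4286 CPM against 1562 to 20282 CPM), and their part in the Acta2 and Tagln levels was not tested.

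**Figure D5:**
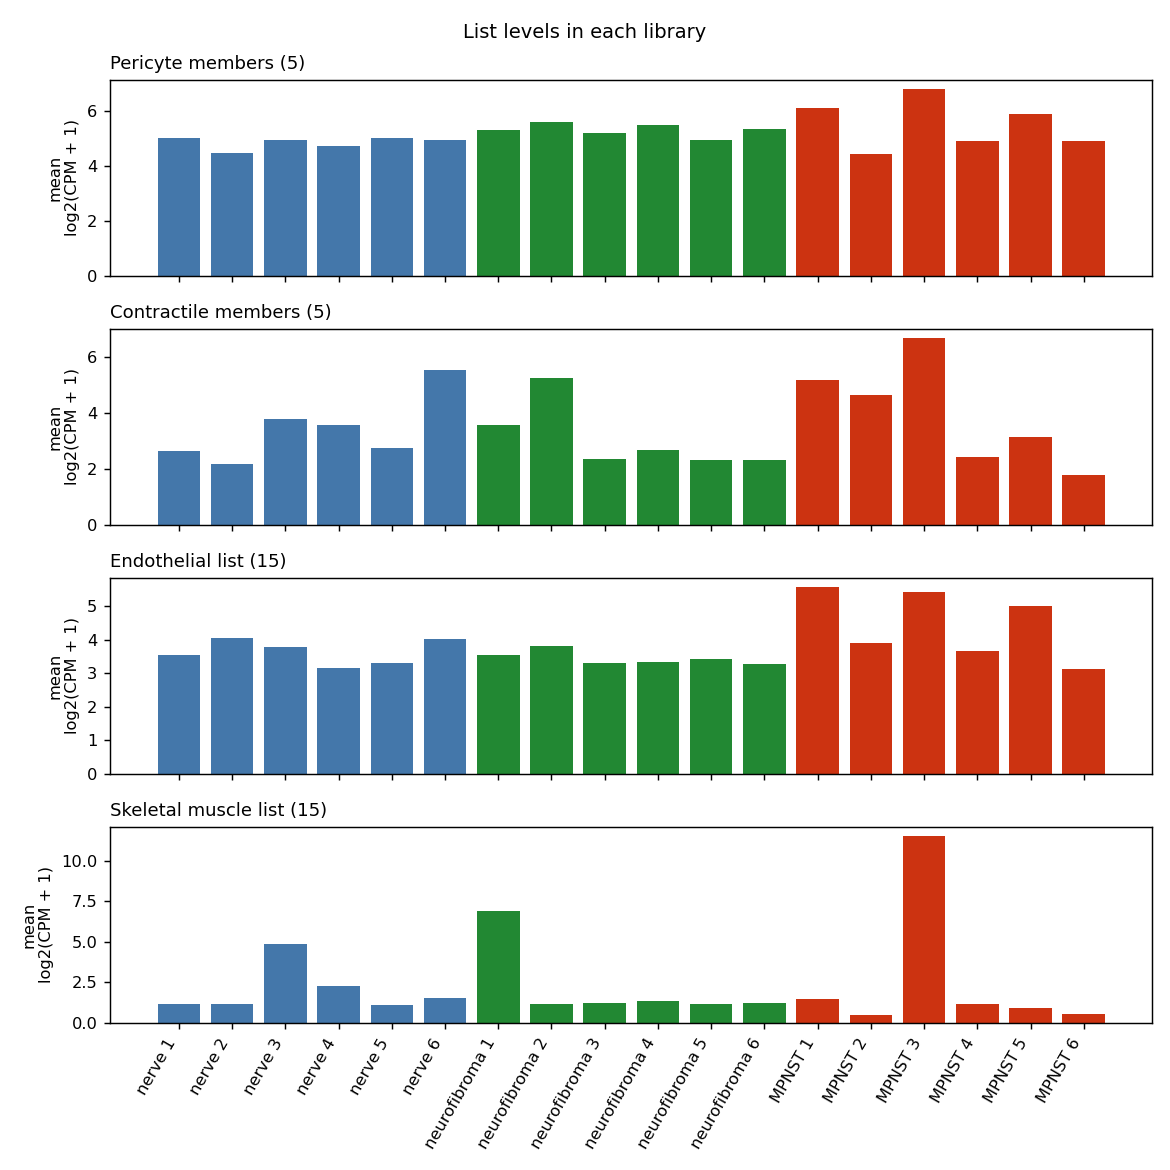
Mean log2(CPM + 1) (vertical axes, from 0) over the 5 pericyte members, the 5 contractile members, 15 endothelial genes and 15 skeletal muscle genes, with 1 bar for each of the 18 libraries. Pericyte and endothelial levels are highest in MPNST 1, 3 and 5, and the skeletal muscle bar in MPNST 3 reaches 11.5. Contractile bars stand out in nerve 6, neurofibroma 2 and MPNST 1, 2 and 3, where MPNST 2 is raised by its low TMM factor.

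MPNST was last set against normal nerve, which shares its MPNST libraries with the previous comparison and its nerve libraries with the first. All 10 members were tested, 3 rose (Cspg4, Abcc9 and Des) and 0 fell. Of all 16384 genes tested 46.0% were called, 27.6% higher and 18.4% lower. The share of 3 of 10, all higher, lies between the 27.6% and the 46.0%, and nothing is read from it. The median log2 change was 0.83 for the members and 0.219 for all genes. The groups overlapped for all 10 members, where 8.93% of tested genes were separate and higher and 14.7% separate and lower.

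Cspg4 was 61.8 ± 48.3 CPM in MPNST and 15.8 ± 4.66 CPM in nerve (n = 6 each). MPNST 1, 3 and 5 were above every nerve, and MPNST 4 and 6, at 22.4 and 23.7 CPM, were close to the highest one at 23.1 CPM. MPNST 2 was within the nerve range, and below it without TMM scaling (4.31 CPM against 9.69 to 25.1 CPM). The log2 change was 2.03 (SE 0.543, edgeR adjusted p = 0.00985), and 1.76 to 2.21 when single libraries were left out. Abcc9 was called at 2.45 (SE 0.672, edgeR adjusted p = 0.0112), and without MPNST 3 at 1.17 (SE 0.302, edgeR adjusted p = 0.00969). Des was called at 7.18 (SE 2.3, edgeR adjusted p = 0.0233), and without MPNST 3 it was -0.02 (SE 0.761, edgeR adjusted p = 0.985). The Des call was also lost without nerve 4 or nerve 5 (edgeR adjusted p = 0.0504 and 0.0507).

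The other members missed the threshold against nerve. Rgs5 was at 0.84 (SE 0.457, edgeR adjusted p = 0.149) and Notch3 at 0.82 (SE 0.423, edgeR adjusted p = 0.13). Without MPNST 6 they were 1.03 and 0.99 with edgeR adjusted p-values of 0.0481 and 0.042. Mcam was at -0.38 (SE 0.408), Myh11 at -0.13 (SE 1.11), Tagln at 1.09 (SE 0.764) and Cnn1 at 0.56 (SE 1.23), with edgeR adjusted p-values of 0.461, 0.934, 0.258 and 0.729. Acta2 was at 0.79 (SE 0.817, edgeR adjusted p = 0.443), and without nerve 6 it was 2.25 (SE 0.577, edgeR adjusted p = 0.00991). Among the 20 other pericyte genes 7 rose and 2 fell (median 0.746), with Anpep at 4.05 (SE 0.874), Steap4 at 2.33 (SE 0.574) and Foxs1 at 2.34 (SE 0.587), and edgeR adjusted p-values of 0.00307, 0.00647 and 0.00696. Among 22 other contractile genes 8 rose and 4 fell (median 0.833), with the high levels of MPNST 3 included here too. Cald1, the actin-binding caldesmon, which fibroblasts also make, went from 72.8 ± 30.5 to 639 ± 360.1 CPM (3.21, SE 0.498, edgeR adjusted p = 0.000445). Notch pathway genes rose in 9 and fell in 3 of 15, and endothelial genes rose in 7 and fell in 1 of 15. Beside these list counts, 27.6% of all genes tested rose and 18.4% fell.

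The genes whose pattern over the 18 libraries was most like a member's were sought for 1 pericyte and 1 contractile gene, by the root mean square difference of centred log2(CPM + 1) among 13070 genes with a mean of at least 5 CPM. For Rgs5 they were Fbxo6 (0.409), Spred1 (0.409) and Foxn3 (0.416). For Myh11 they were Mylk (1.16), Tagln (1.16) and Whrn (1.19). This measure grows with a gene's own spread, so the values for Rgs5 and Myh11 are not compared with each other. Mylk, the kinase that activates smooth muscle myosin, had 94.2 CPM in nerve 6 and 57.2 CPM in neurofibroma 2, the highest of each group, and 4.01 and 3.71 CPM in MPNST 4 and 6. In MPNST 5, where Myh11 was 3.16 CPM, Mylk was 53.1 CPM.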

How the data were processed

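The authors deposited 1 table of estimated counts per gene, made with Salmon 1.4.0 on the mouse build GRCm39, with FastQC and DESeq2 also named, per the submitters' processing notes. Not given in the sources used here are Salmon's settings, the annotation and the strand setting. Libraries were stranded and poly(A)-selected, per the labels' protocols. All 18 columns were matched to samples by name, and 0 had no sample.

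Counts were rounded, filtered with filterByExpr, scaled by TMM and fitted for each pair of groups with edgeR 4.0.16 (glmQLFit and glmQLFTest, two-sided) in R 4.3.3, with Benjamini-Hochberg adjustment over all genes tested and a threshold of 0.05. SE was derived from the log2 change and the F statistic. CPM was scaled by TMM over the 18 libraries, and log levels used a pseudocount of 1 CPM. The fit was tested on simulated data. No column repeated another, and libraries of 1 group differed by a chi-square per degree of freedom of at least 17.2, so each was counted as a sample.

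The 10 members and the 16 lists (199 entries, 197 found) were chosen with earlier results of these data known. The rule for names took all members, from each other list up to 3 called genes with the smallest adjusted p in a comparison or else its first 2, and the 3 genes most like Rgs5 and Myh11. The text gives only some of the genes of the other lists that the rule took, and this choice, Pdgfb and the genes named for a level alone were made after values were seen. Nf1 and Cdkn2a counts cover whole genes and do not check the floxed parts. By gene position in RefSeq, Notch3, Abcc9, Des and Tagln overlap another gene (Tagln overlaps Pcsk7), so their counts are less certain.

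Alternatives were RLE and upper-quartile scaling, other filters, DESeq2 1.42.0, limma-voom (limma 3.58.1) with sample quality weights, one fit of all 18 samples, a threshold of 0.01, leaving out each library, the libraries or the genes of other tissues and, added after seeing the data, no scaling beyond library totals.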

Additional observations from a re-analysis of the deposited data

Results flagged for a closer look

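In 11 of the 30 sets of 6 values (10 genes in 3 groups), the highest library stood apart from the rest by Dixon's criterion, which sets the gap to the next library against the range. For normally distributed values, chance gives such a library in about 1 in 20 sets. CPM values on a linear scale need not be normal, so the share due to chance is not known here. Genes of 1 library are also not independent. Nerve library 6 stood apart for Myh11 (125 CPM), Tagln (84.3 CPM), Acta2 (158 CPM) and Cnn1 (10.4 CPM). Neurofibroma library 2 stood apart for Myh11 (97.6 CPM), Tagln (93.6 CPM), Acta2 (119 CPM) and Cnn1 (11.3 CPM). Des stood apart in neurofibroma library 1 (43.4 CPM, next 4.81 CPM) and MPNST library 3 (4548 CPM, next 17.2 CPM). Abcc9 stood apart in MPNST library 3 (126 CPM, next 18.8 CPM). Cspg4, Rgs5, Notch3 and Mcam had 0 such libraries in the 3 groups.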

How the results depend on the processing

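Of 638 log2 changes of members recomputed under other settings, 583 kept their direction and their side of the threshold, 26 lost the call, 10 gained it and 19 turned direction. For neurofibroma against nerve, the count of 1 member called (Cspg4) became 0 in one fit of all 18 samples, which called 2 of all genes against 2295. Other counts over all genes there were 1438 with no filter, 3509 with DESeq2, 4026 with limma-voom and 520 at a threshold of 0.01. They were 1404 without nerve 5, 3817 without nerve 6, and 1355, 1147 and 1471 without neurofibroma 2, 4 and 6. For MPNST against neurofibroma, the 3 members called became 1 with no filter, 1 with DESeq2, 1 with no scaling beyond library totals and 0 at a threshold of 0.01. For MPNST against nerve, the 3 became 1 with DESeq2, 5 with limma-voom and 1 at a threshold of 0.01. DESeq2 gave no adjusted p for Abcc9 and Des in either. At 0.01, 4063 and 4633 of all genes were called against 6948 and 7534, and without the other-tissue libraries 10532 were called in MPNST against neurofibroma. With no scaling the median log2 change of all genes moved from 0.223 to 0.0583 and from 0.219 to 0.0382, and the share of calls that were higher moved from 60.1% to 49.7% and from 60.1% to 50.3%. Leaving out 1 library gave 1 to 1 member called in neurofibroma against nerve, 1 to 3 in MPNST against neurofibroma and 2 to 5 in MPNST against nerve. The lowest count came without neurofibroma 3, 5 or 6 or MPNST 3 in the former, and the 5 came without MPNST 6. Without nerve 6 and neurofibroma 1, the neurofibroma changes turned to -0.84 for Des, 0.79 for Myh11 and 1.09 for Acta2. Without the other-tissue libraries of each MPNST comparison (nerve 6, neurofibroma 1 and MPNST 2, 3 and 6, with nerve 3 kept), Myh11 turned to -0.40 against neurofibroma and 0.38 against nerve. Des lost its call in both (1.45 and 0.60, edgeR adjusted p = 0.0924 and 0.581), and against nerve Notch3 (1.08, edgeR adjusted p = 0.0437) and Acta2 (2.47, edgeR adjusted p = 0.00272) gained one. With no scaling Cnn1 turned to -0.17. Leave-one-out ranges that crossed 0 were, in neurofibroma against nerve, -1.10 to 1.22 for Des, -2.38 to 0.66 for Myh11, -0.19 to 0.88 for Tagln and -2.36 to 0.94 for Acta2. In MPNST against neurofibroma they were -0.028 to 0.41 for Cspg4, -0.70 to 8.27 for Des and -0.0234 to 2.21 for Myh11, and against nerve -0.0202 to 7.71 for Des, -0.65 to 1.10 for Myh11 and -0.49 to 1.65 for Cnn1. The cause of these changes was not tested. Member windows with a CArG box went from 0 to 1 with 1 other letter allowed. No paired analysis was possible because replicate numbers are names in accession order and pair nothing. At a few counts per library, Cnn1 was not measured precisely in neurofibroma.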
